A study of Homo sapiens with 6 samples.

Results

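The 7 tubulin genes described here are TUBA1A, TUBA1B and TUBA1C, which encode alpha-tubulins, TUBB, TUBB2A and TUBB4B, which encode beta-tubulins, and TUBG1, which encodes gamma-tubulin. They were chosen by name out of 20176 protein-coding genes, and every PAR-CLIP site on the gene's own strand whose midpoint lay inside the gene was taken. The background libraries held 141 (G20), 40 (G35) and 49 (G45) such sites, HuR replicates 1 and 2 held 84 and 166, and Total held 242.

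In PAR-CLIP, living cells take up 4-thiouridine (4SU), long-wave UV joins it to the protein it touches, and the joined base is later read as C in place of T. All 6 libraries came from HEK293, an established human embryonic kidney line, grown with 4SU, irradiated and digested with RNase T1, which cuts after G. The background arm was FLAG-tagged green fluorescent protein (GFP) taken with the FLAG M2 antibody and excised from the gel near 20, 35 and 45 kDa (G20, G35 and G45), and the HuR arm was FLAG-tagged HuR taken with the same antibody (2 replicates). Total was 1 library made without immunoprecipitation, in which protein was digested with proteinase K and rRNA was depleted with RiboZero. Both tagged proteins were induced with doxycycline in stable lines, so HuR was present from a transgene in addition to the cells' own protein. Each slice was a single library from 1 part of a gel lane, the slices are not replicates of each other, and p-values below describe the spread between these libraries, which may be technical. Without molecular identifiers, reads are not separate molecules, and all intervals and floors reflect counting error alone.

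The sum of reads over sites ranged from 6187300 in G35 to 38644636 in G20, but only 2.15% (G20) to 16.6% (Total) of reads lay at coding or UTR exons of protein-coding genes. The exon reads, between 355103 in G45 and 5955220 in Total, are therefore the denominator of all levels. RPM stands for reads per 1000000 exon reads, RPKM for RPM per kb of region, and 3 reads correspond to 8.45 RPM in G45 and to 0.504 RPM in Total. Of the markers of the HEK293 line, the neurofilament genes NEFL, NEFM and INA and the kidney factor PAX2 each had exon reads in at least 5 of the 6 libraries, and INA in all of them with 3 to 619 reads. Markers of liver, blood, red cells and heart muscle (ALB, PTPRC, HBB and MYH7) had at most 41 exon reads in any library. The sets overlapped, since NEFM had at most 11 and PAX2 at most 22 exon reads in any library. MYH7 had reads in every library, so only NEFL and INA, with up to 362 and 619 reads, stood above the other markers. In a lysate of a whole culture, fewer cells carrying an mRNA and fewer copies per cell cannot be told apart.

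Alpha- and beta-tubulin form the dimers that polymerize into microtubules, and gamma-tubulin nucleates them at the centrosome. Cells hold tubulin mRNA levels in check through autoregulation, in which TTC5 recognizes the first residues of the nascent tubulin chain and brings decay factors to the translating mRNA. HuR, the product of ELAVL1, binds U-rich and AU-rich elements, mostly in 3'UTRs and introns, and is known for stabilizing the mRNAs it binds.

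Sequences of some of the named tubulin sites are shown first. Each is a stretch of at most 30 bases of the deposited site, on hg19 (GRCh37), 5' to 3' on the gene's strand. Capitals mark 3 motifs, searched on that strand only: TTTTT for a run of U, ATTTA for the core of AU-rich elements, and GGGG for a run of G. Matches to different motifs cannot share a base. The first is a TUBB 3'UTR site, the next are 3'UTR sites of TUBA1B and TUBA1C, and the last pair are the coding sites with the most background reads.
TUBB 3'UTR, chr6:30692272-30692301, plus strand: cttgTTTTTTgTTTTTTcttctGGGGGGGG
TUBA1B 3'UTR, chr12:49521587-49521616, minus strand: tacctgtaataTTTTTccatcatatctcaa
TUBA1C 3'UTR, chr12:49667031-49667060, plus strand: actcctttgtcttggaactgtcttaTTTTT
TUBA1B coding, chr12:49523340-49523369, minus strand: actccttcaacaccttcttcagtgagacgg
TUBB coding, chr6:30691757-30691786, plus strand: ccacggccgatacctcaccgtggctgctgt

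The TUBB stretch holds a pair of U runs with a G run a few bases further on. In HuR replicate 2, TTTTT was present in 62.9% and GGGG in 28.6% of 1404 3'UTR sites within 10 bp of this site's length. In G20, where the site was shorter, 3763 3'UTR sites of like length held TTTTT in 5.16% and GGGG in 49.0% of cases. The site thus carried the letters frequent among HuR sites and those frequent among background sites. The TUBB 3'UTR stretch with the next most HuR reads (chr6:30692397-30692611) is not shown. Its deepest site in HuR replicate 2 held none of the 3 motifs, although TTTTT was present in 58.4% of 2109 sites of like length. The TUBA1B 3'UTR site held 1 TTTTT and no GGGG, compared to 27.1% and 11.7% of 65325 sites of like length in HuR replicate 2. The TUBA1C site held 3 and 18 reads in the HuR replicates (4.11 and 5.23 RPM), 32 in Total (5.37 RPM) and none in the slices. A count of 0 allows up to 3 reads, or 3.61 RPM in G20, 7.84 in G35 and 8.45 in G45. No difference from G35 or G45 was therefore detectable at the TUBA1C site. Neither coding site held any of the 3 motifs, while GGGG was present in 39.7% of 3269 and 33.0% of 6558 coding sites of their lengths in G20.

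TUBB, the broadly expressed beta-tubulin gene, lies on the plus strand of chromosome 6 (chr6:30685212-30693315), and the site with the U and G runs begins 91 bases after the end of its coding sequence (chr6:30692265-30692350). HuR replicate 2 held 6632 reads there and HuR replicate 1 held 199 reads. G20 held 89 reads, G35 held 88 at the main site and 1 at a neighbor inside the HuR interval, G45 held 55 and Total held 44. It was the tubulin site with the most reads in both HuR replicates and also the one with the most reads over the 3 slices together. In RPM, HuR replicate 2 stood at 1927 and replicate 1 at 273, the slices at 107 (G20), 233 (G35) and 155 (G45), and Total at 7.39. Both HuR replicates lay above all 3 slices, but replicate 1 was close to G35 and the replicates differed from each other by more than replicate 1 differed from any slice. By reads, the site ranked 6 among 170505 3'UTR sites in HuR replicate 2, 59 among 110373 in replicate 1, 53 among 11461 in G35, 87 among 55521 in G20 and 104 among 15368 in G45. In Total it ranked 5367 among 205248.

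The libraries differed more clearly in how often this TUBB site was converted. Conversion events per 100 reads, where a read can hold more than 1 event, were 96.5 in HuR replicate 1 and 84.5 in replicate 2 (mean 90.5 ± 8.46 SD, n = 2). G20 stood at 41.6, G35 at 25.0, G45 at 29.1 and Total at 29.5. The HuR replicates thus did not overlap the slices, whose mean was 31.9 ± 8.63 (SD, n = 3), and the exact two-sided permutation p was 0.2, the smallest that 2 against 3 libraries can give. The site also spanned 82 and 86 bp in the HuR replicates, compared to 53 bp in G20 and G45, 31 bp in G35 and 71 bp in Total. Among 3'UTR sites with 20 or more reads, the median was 98.3 and 102 events per 100 reads in the HuR replicates, 15.6 in G20, 56.4 in G35, 38.5 in G45 and 17.2 in Total. Relative to these medians, the TUBB site was converted more often in G20 and Total and less often in G35, G45 and HuR replicate 2. In HuR replicate 1 it lay close to the median (96.5 against 98.3), so its conversion in HuR was not above that of HuR 3'UTR sites in general.

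**Figure D1:**
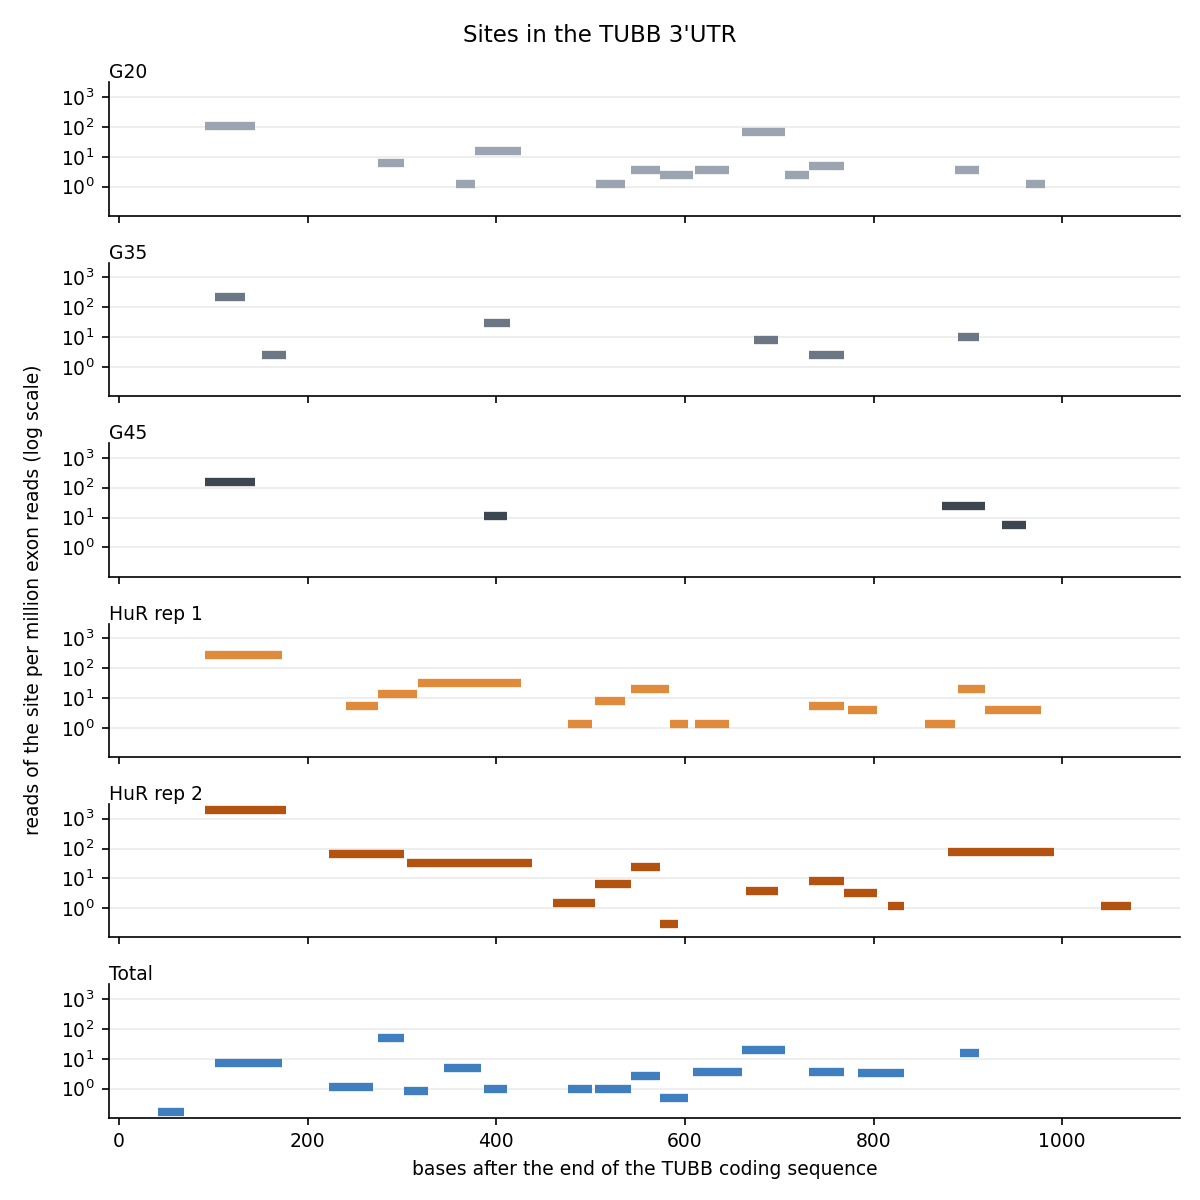
Each bar is a deposited site in the TUBB 3'UTR, placed by its distance in bases from the end of the coding sequence, at the height of its RPM (log scale), in 1 panel per library. The site that begins at base 91 or 102 is the highest in all panels but Total, where the highest begins at base 274.

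Further along the TUBB 3'UTR, HuR and the slices separated at some stretches and not at others. A stretch from base 223 to base 437 (chr6:30692397-30692611) held 335 reads in HuR replicate 2, 37 in replicate 1 and 348 in Total, compared to 19 in G20, 11 in G35 and 4 in G45. Within it, a Total site from base 274 to base 301 held 300 reads, the most of any TUBB 3'UTR site in that library. A G20 site from base 660 to base 705 held 55 reads against 117 in Total, 3 in G35, 13 in HuR replicate 2 and none in HuR replicate 1 or G45. Near the end of the 3'UTR (chr6:30693029-30693164), HuR replicate 2 held 262 reads and replicate 1 held 19, against 4 in G20, 4 in G35, 11 in G45 and 90 in Total. In RPM this was 76.1 and 26.0 in the HuR replicates, 4.81, 10.5 and 31.0 in the slices and 15.1 in Total, so G45 lay above HuR replicate 1. Every one of these stretches had reads in at least 1 slice, so none was as a whole particular to HuR by position. Within the first, a HuR replicate 1 site of 4 reads (chr6:30692415-30692447) overlapped no slice site. Another TUBB 3'UTR site (chr6:30692943-30692977) held 3 and 11 HuR reads (4.11 and 3.20 RPM), 20 in Total and none in the slices. Those levels lie below the 7.84 and 8.45 RPM that 3 reads correspond to in G35 and G45.

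Over the 3'UTR as a whole, TUBB held 182 reads in G20, 108 in G35, 70 in G45, 286 and 7402 in the HuR replicates and 695 in Total. Over its coding sequence it held 337, 43 and 65 reads in the slices, 14 and 125 in the HuR replicates and 1718 in Total. In RPKM, the 3'UTR level was 343 and 1885 in the HuR replicates (mean 1114 ± 1090 SD, n = 2), 173 to 247 in the slices and 102 in Total. The coding level was 14.3 and 27.1 (mean 20.7 ± 9.06 SD, n = 2), 84.0 to 303 in the slices and 216 in Total. The HuR replicates lay above every other library in the 3'UTR and below every other library in the coding sequence.

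Among the alpha-tubulin genes, TUBA1B (chr12:49521565-49525180, minus strand), a broadly expressed isotype, showed the same direction with a different background. Its 3'UTR held 6 reads in G20, none in G35, 2 in G45, 23 and 354 in the HuR replicates and 1265 in Total. Most of these lay at the site near the 3' end of the gene (chr12:49521580-49521616), with 12 and 318 reads in the HuR replicates, 1110 in Total, 2 in G20 and none in G35 or G45. In RPM, this site stood at 16.4 and 92.4 in HuR, 186 in Total and 2.41 in G20, and 3 reads, the most that a count of 0 allows, correspond to 7.84 in G35 and 8.45 in G45. The TUBA1B site was therefore deepest in Total and shallow in the slices, while the TUBB site was shallow in Total and deep in the slices. Its conversion was 100 and 101 events per 100 reads in the HuR replicates and 29 in Total. The TUBA1B coding sequence held 154, 28 and 10 reads in G20, G35 and G45, 3 and 22 in the HuR replicates and 256 in Total, and 1 site (chr12:49523290-49523369) supplied 120 of the 154 reads in G20.

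**Figure D2:**
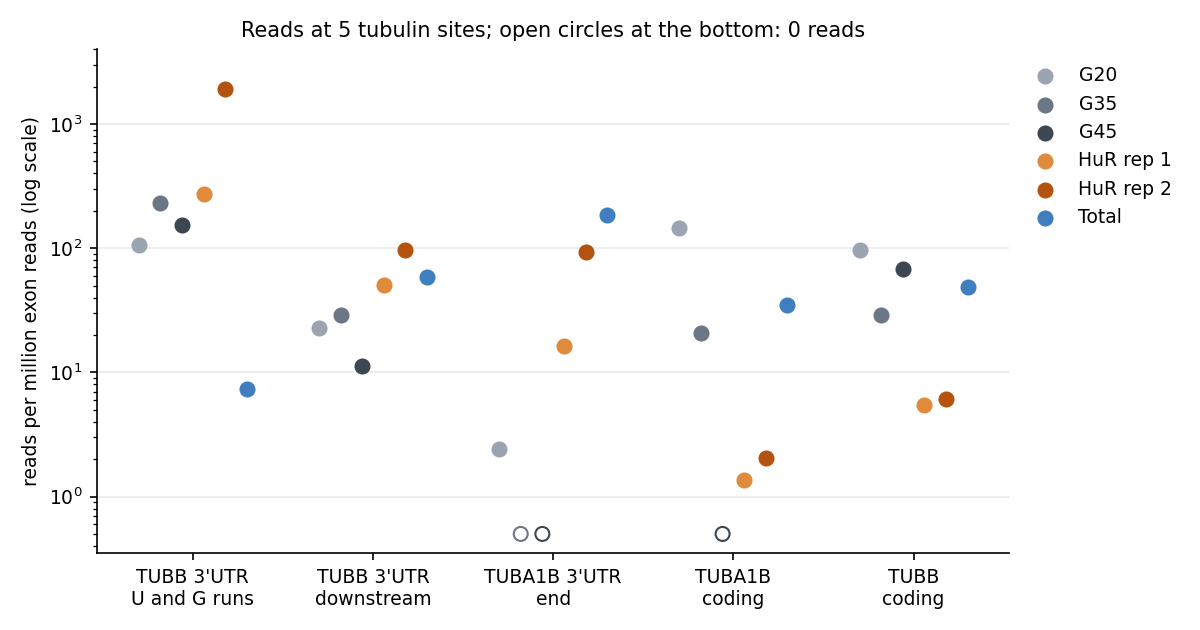
RPM (log scale) at the 3 tubulin sites with the most HuR reads and the other 2 of the 3 with the most background reads, with 1 point per library and open circles for 0 reads. The TUBB 3'UTR site with U and G runs is lowest in Total, the TUBA1B 3'UTR site is highest in Total, and both coding sites are lowest in the HuR replicates among libraries with reads.

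TUBA1C (chr12:49582519-49668383, plus strand) has the longest span of the 7 genes and was the one with the most intronic HuR reads, 24 and 200 in the replicates, against 20, 4 and 7 in the slices and 85 in Total. Per length, its introns had the lowest mean HuR level of the 7 genes, at 0.404 and 0.713 RPKM, compared to 6.58 and 9.58 in TUBB introns. Its 3'UTR held 2, 0 and 4 reads in G20, G35 and G45, 5 and 99 in the HuR replicates and 43 in Total. Its coding sequence held 88, 10 and 19 reads in the slices, 3 and 34 in the HuR replicates and 324 in Total. HuR reads were again lower than slice reads, in RPM, in the coding sequence, but the 3'UTR level of HuR replicate 1, 4.35 RPKM, lay below the 7.15 of G45. TUBA1A (chr12:49578469-49582863, minus strand), an isotype prominent in developing neurons, had 37, 4 and 7 coding reads in the slices, none and 8 in the HuR replicates and 176 in Total. Its 3'UTR had 2 reads in HuR replicate 2 and none elsewhere, so no difference was detectable there at this depth.

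TUBB4B (chr9:140135739-140138159, plus strand), a beta-tubulin of ciliary axonemes that is also widely expressed, was mostly a coding-sequence gene in every library. Its coding sequence held 262, 41 and 24 reads in G20, G35 and G45, 3 and 29 in the HuR replicates and 610 in Total. Its 3'UTR held 11, 9 and 0 reads in the slices, 2 and 12 in the HuR replicates and 13 in Total. In RPKM, the coding level was 3.07 and 6.30 in HuR (mean 4.68 ± 2.28 SD, n = 2), 50.5 to 236 in the slices and 76.6 in Total. HuR lay below all other libraries in the coding sequence and inside the range of the slices in the 3'UTR. TUBB2A (chr6:3153731-3157778, minus strand), a beta-tubulin of neurons, had 5 coding reads in G20, 10 coding and 12 3'UTR reads in Total, and no coding or UTR reads in the other 4 libraries, where a count of 0 allows up to 3 reads each.

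TUBG1 (chr17:40761659-40767256, plus strand), the gamma-tubulin gene, had few reads in the HuR libraries. Its coding sequence held 20, 9 and 1 reads in the slices, none and 4 in the HuR replicates and 326 in Total. Its 3'UTR held 10, 0 and 1 reads in the slices, 2 and 4 in the HuR replicates and 81 in Total. In RPKM, its 3'UTR stood at 13.9 and 5.90 in the HuR replicates and at 0 to 61.1 in the slices, so these ranges overlapped.

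**Figure D3:**
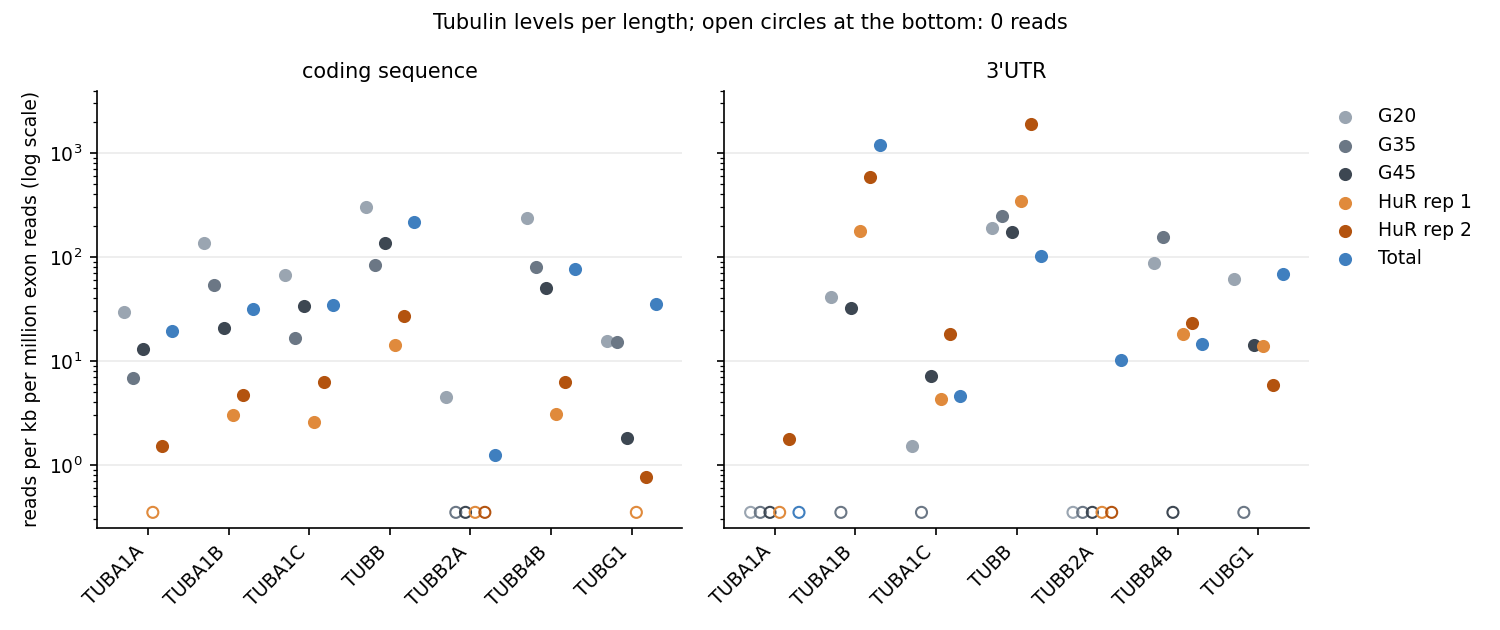
Exon-based RPKM (log scale) for the coding sequence (left) and the 3'UTR (right) of each gene, with 1 point per library and open circles for 0 reads. HuR points lie below the slices in the coding sequence of TUBA1A, TUBA1B, TUBA1C, TUBB, TUBB4B and TUBG1, and above the slices in the 3'UTR of TUBB and TUBA1B. For TUBG1 coding this rests on 0 and 4 HuR reads against 1 read in G45, too few to detect a difference from G45.

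Levels of different genes are limited by what can be mapped uniquely, because tubulin coding sequences are nearly alike and have many pseudogenes. Of 30-base stretches in the coding sequence, the share found once in the genome was 16.5% in TUBB2A, 17.3% in TUBA1B, 29.98% in TUBA1A, 38.9% in TUBA1C, 46.4% in TUBB, 56.3% in TUBG1 and 75.3% in TUBB4B. In 3'UTRs it ranged from 68.2% in TUBB4B to 100% in TUBB2A. A coding level is therefore a lower estimate, by an amount that differs between genes and with read length. In TUBB coding sequence the unique share was 26.2% for stretches of 20 bases and 71.8% for 50 bases, and whether the loss differed between libraries was not tested. Over all exons the order of mean HuR levels was TUBB (371 ± 358 SD, n = 2), TUBA1B (37.1 ± 27.3), TUBA1C (7.95 ± 6.52), TUBB4B (6.93 ± 3.60), TUBA1A (1.48 ± 1.43), TUBG1 (1.39 ± 0.161) and TUBB2A (0 reads). TUBB and TUBA1B did not overlap in range, and nor did TUBA1B and TUBA1C, but TUBA1C and TUBB4B, and TUBA1A and TUBG1, did not differ beyond the spread of the replicates. In the slices TUBB4B stood at 43.2 to 215 and TUBB at 109 to 186, and these ranges overlapped.

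Within the mRNA of the 7 genes, the 3'UTR held a larger share of reads in both HuR replicates than in any other library. The 3'UTR held 91.4% of 348 mRNA reads in HuR replicate 1 (95% Wilson interval 88.0 to 93.9) and 95.9% of 8206 in replicate 2 (95.5 to 96.3), a mean of 93.7% ± 3.23 (SD, n = 2). It held 17.6% of 1201 in G20 (15.5 to 19.8), 44.5% of 263 in G35 (38.6 to 50.5), 35.2% of 219 in G45 (29.1 to 41.7) and 36.0% of 5863 in Total (34.8 to 37.2). This share needs no scaling between libraries, and the HuR replicates and the slices did not overlap, with an exact two-sided permutation p of 0.2, the smallest this design allows. With each site counted once in place of its reads, the 3'UTR share was 57.9% of 38 sites and 43.0% of 79 sites in the HuR replicates (mean 50.5%), 19.4% to 20.4% in the slices and 25.8% in Total. Because TUBB dominated, the share of reads was computed again without it, a choice made after the data were seen. Without TUBB the 3'UTR held 74.4% of 43 reads in HuR replicate 1 (59.8 to 85.1) and 74.9% of 629 in replicate 2 (71.3 to 78.1). It held 4.41% to 8.54% in the slices and 41.7% in Total. TUBA1B supplied 23 of these 32 3'UTR reads in HuR replicate 1 and 354 of 471 in replicate 2, and its own 3'UTR share was 76.4% in Total. Over all protein-coding genes it was 41.9% and 84.0% in the HuR replicates, 22.8% to 33.6% in the slices and 26.5% in Total, so the HuR replicates differed from each other far more over all genes than over the tubulin genes.

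**Figure D4:**
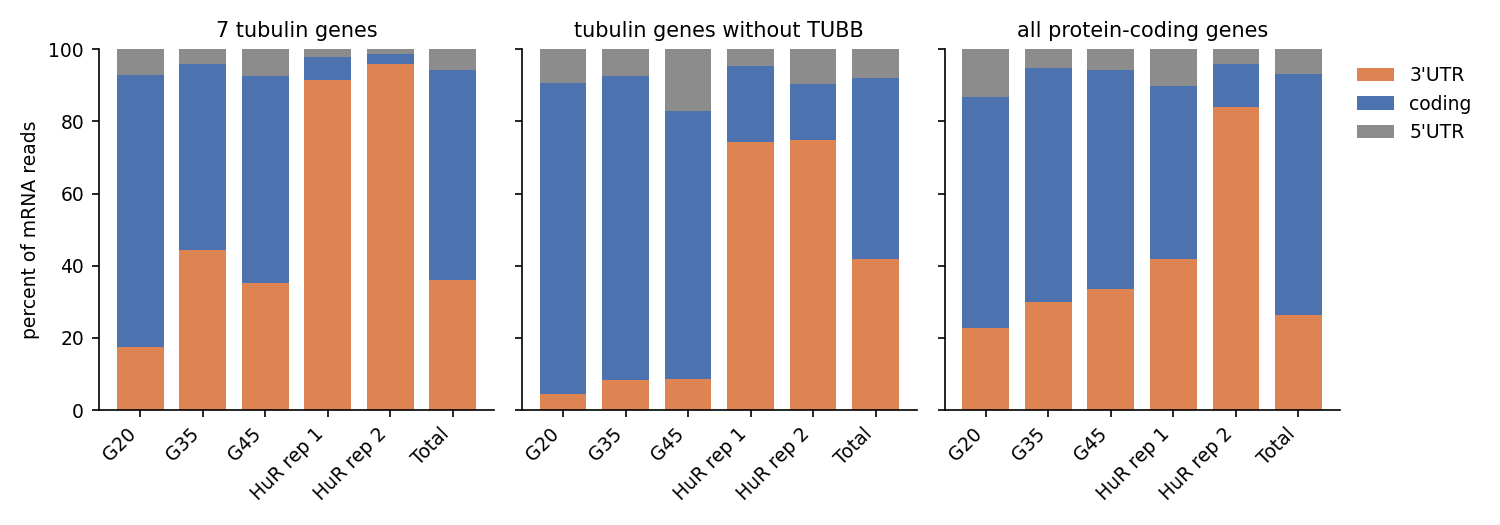
Percent of mRNA reads at 3'UTR, coding and 5'UTR sites in each library, for the 7 tubulin genes (left), for the same genes without TUBB (middle) and for all protein-coding genes (right). The 3'UTR share of the tubulin genes is above 90% in both HuR replicates and below 45% in the other libraries.

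Across all 43293 gene regions tested in 1 edgeR model, coding features of 4 of the 6 members that passed the filter on low counts fell in HuR against the slices, and no 3'UTR feature of 5 tested was called (1 at an unadjusted p under 0.05 and 1 by DESeq2, both TUBA1B). Over all coding features tested, 9.96% were called lower. TUBB2A, and the 3'UTR of TUBA1A, did not pass the filter. TUBB4B coding reads fell by 5.63 on the log2 scale (SE 1.06, adjusted p 0.0109), those of TUBA1B fell by 5.11 (SE 1.16, adjusted p 0.0158), those of TUBB fell by 4.00 (SE 0.90, adjusted p 0.0158) and those of TUBA1C fell by 4.05 (SE 1.13, adjusted p 0.0367). TUBG1 (-5.29, SE 1.63, adjusted p 0.0533) and TUBA1A (-5.07, SE 1.63, adjusted p 0.0611) did not pass. The median was -5.09 over the coding features of the members and -2.61 over all coding features. For 3'UTRs the difference was 2.88 for TUBA1B (SE 0.96, adjusted p 0.0697), 1.48 for TUBB (SE 0.73, adjusted p 0.20) and 1.18 for TUBA1C (SE 1.79, adjusted p 0.698), none of which passed. It was negative for TUBB4B (-2.81, adjusted p 0.379) and TUBG1 (-2.38, adjusted p 0.469), which did not pass either.

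These calls depended on how the libraries were scaled. The median over all features was -0.30 with the chosen scaling, 0.30 when only exon features entered the fit and 1.19 with library totals alone. With exon features only, TUBB4B coding was still called lower (-3.40, adjusted p 0.0337), TUBB, TUBA1B and TUBA1C coding were not, and the 3'UTRs of TUBA1B (5.01, adjusted p 0.00129) and TUBB (3.40, adjusted p 0.0395) were called higher. In that fit 2.02% of all coding features were called lower and 38.9% of all 3'UTR features were called higher, so a higher 3'UTR was frequent among all genes. With library totals none of the 4 coding features was called, and of the members TUBA1B 3'UTR alone was called higher (4.94, adjusted p 0.0446). The 4 coding differences kept their sign in all 12 alternatives. The 3'UTR differences of TUBB, TUBA1B and TUBA1C (positive) and of TUBB4B and TUBG1 (negative) also kept their sign in all 12. Of these 12, TUBB4B coding was called in 9, TUBB and TUBA1B coding in 6 each and TUBA1C coding in 4. All 4 coding calls were lost without G20, with adjusted p from 0.0654 for TUBB4B to 0.107 for TUBA1C, and with sites of 2 or more reads only, with adjusted p from 0.0522 for TUBB4B to 0.0725 for TUBA1C. TUBB, TUBA1B and TUBA1C were also lost without either HuR replicate, and TUBA1C without G45.

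Against Total, the coding difference was negative for all 6 members tested and 4 were called, where 7.81% of all coding features were called lower. TUBB4B fell by 5.56 on the log2 scale (SE 1.14, adjusted p 0.00996), TUBB fell by 4.95 (SE 1.03, adjusted p 0.0111), TUBG1 fell by 7.63 (SE 1.87, adjusted p 0.0258) and TUBA1B fell by 4.56 (SE 1.23, adjusted p 0.0431). TUBA1C (-4.50, adjusted p 0.0509) and TUBA1A (-5.94, adjusted p 0.0723) did not pass. The comparison shares its HuR libraries with the preceding one, and all 4 calls were lost without HuR replicate 1 (adjusted p 0.192 to 0.560), with sites of 2 or more reads (0.0524 to 0.0857), with exon features only and with library totals. TUBG1 and TUBA1B were also lost without HuR replicate 2 (adjusted p 0.162 and 0.215) and without G20 (0.0501 and 0.0620), and TUBA1B without G45 (0.0574). Of the 12 alternatives, TUBB4B and TUBB coding were called in 8 each, TUBG1 coding in 6 and TUBA1B coding in 4. TUBB 3'UTR was at 1.74 (SE 1.08, adjusted p 0.436) and TUBA1B 3'UTR at -3.30 (SE 1.11, adjusted p 0.110), and neither passed. The 3'UTRs of TUBA1C (-0.35, adjusted p 0.955), TUBB4B (-1.01, adjusted p 0.855) and TUBG1 (-4.30, adjusted p 0.379) did not pass either.

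Between the slices and Total, 1 member feature was called. TUBA1B 3'UTR fell by 6.18 on the log2 scale in the slices (SE 1.09, adjusted p 0.00980), and 0.178% of all 3'UTR features were called lower. The call held with exon features only and with library totals, and was lost without any 1 of the 3 slices (adjusted p 0.0542 to 0.142) and with sites of 2 or more reads (0.0794). The coding differences ranged from -2.33 for TUBG1 to 0.56 for TUBA1B and were not called, and those of TUBA1B and TUBB4B and the 3'UTR difference of TUBB changed sign under some alternatives.

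The study's correction removes a HuR site when it overlaps any background site by 1 bp, and most HuR reads of the tubulin genes lay at such sites. On the same strand, 84.6% of 409 HuR replicate 1 reads (Wilson 80.8 to 87.8) and 94.2% of 8690 replicate 2 reads (93.7 to 94.7) of the 7 genes lay at sites that overlapped a site of some slice, a mean of 89.4% ± 6.80 (SD, n = 2). Over all protein-coding genes the shares were 50.5% and 24.8%. Counted by sites and not by reads, 46.4% and 42.2% of tubulin sites overlapped, compared to 9.24% and 8.58% over all genes. In 3'UTRs 95.9% and 98.5% of tubulin HuR reads overlapped, where all genes stood at 49.7% and 49.8%. In coding sequence all of the 23 and 222 tubulin reads did, beside 86.1% and 62.5% over all genes. In introns 20.7% and 25.7% of reads did, beside 46.7% and 20.0% over all genes, so by reads the tubulin introns overlapped background less than introns at large in HuR replicate 1. Counted by sites, the direction was the reverse, with 17.8% and 16.7% of tubulin intron sites beside 7.28% and 6.70% over all genes. The HuR replicates differed in depth, 9525265 against 32111810 reads, and the part of depth in these shares was not tested.

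What was left after removal differed by gene. TUBB kept 24 of 327 reads in HuR replicate 1 and 105 of 7728 in replicate 2, and TUBA1B kept 3 of 33 and 33 of 448. TUBA1C kept 29 of 32 and 283 of 349, most of them intronic. In HuR replicate 2 the remaining sites with the most reads were a TUBA1C intron site with 23 reads (chr12:49661757-49661792), the TUBA1C 3'UTR site shown above with 18 reads (chr12:49667022-49667079), which had 3 reads in replicate 1 and 32 in Total, and a TUBB intron site with 15. No remaining tubulin site had more than 4 reads in HuR replicate 1. Without the TUBB site with the U and G runs, 72.8% of the remaining HuR reads (mean of the replicates) still overlapped background, a value chosen after the data were seen.

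Conversion separated HuR from the other libraries over the tubulin genes as a whole. Events per 100 reads were 93.4 and 87.0 in the HuR replicates (mean 90.2 ± 4.50 SD, n = 2), 22.4 in G20, 67.5 in G35, 53.3 in G45 and 18.2 in Total. Over all protein-coding genes they were 61.8 and 97.5 in the HuR replicates, 9.39, 55.1 and 47.6 in the slices and 25.5 in Total. The few HuR reads in tubulin coding sequence were also converted, at 78.3 and 81.1 events per 100 reads from 23 and 222 reads, while all coding sites stood at 18.7 and 73.6. Tubulin coding sites in the slices stood at 19.3 (G20), 74.1 (G35, 135 reads) and 49.2 (G45), so in coding sequence G35 was close to HuR. In TUBB coding sequence G35 was at 107 from 43 reads, above the HuR replicates at 85.7 and 80.0. In Total, tubulin coding sites were at 12.9 and tubulin 3'UTR sites at 28.4, against 29.6 and 19.8 over all genes.

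**Figure D5:**
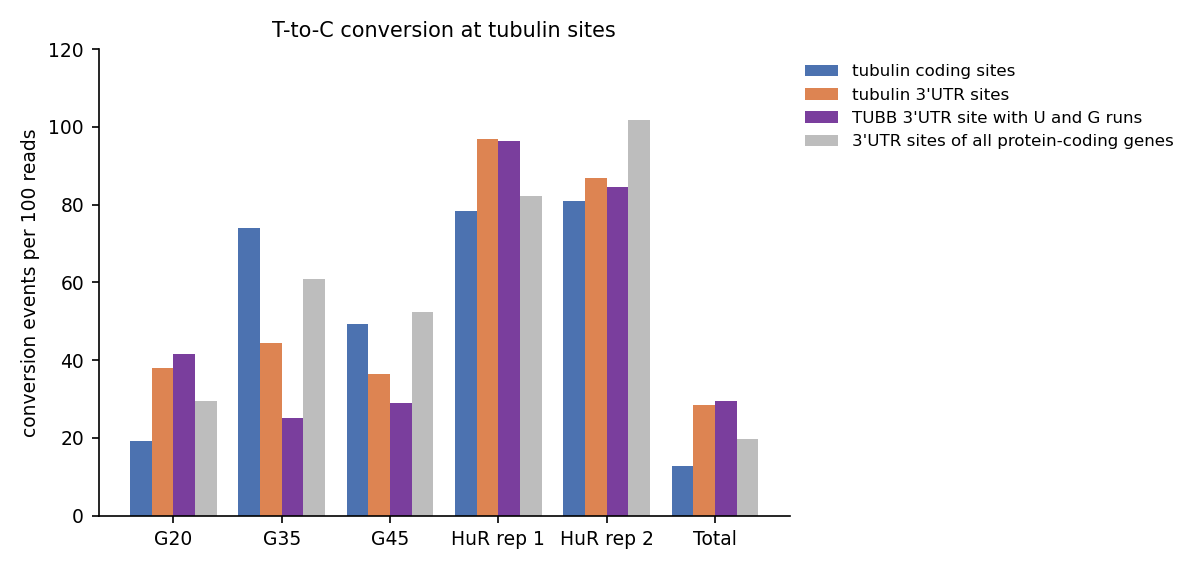
T-to-C conversion events per 100 reads in each library for tubulin coding sites, tubulin 3'UTR sites, the TUBB 3'UTR site with U and G runs, and the 3'UTR sites of all protein-coding genes. The TUBB site stands at 84.5 or more in the HuR replicates and at 41.6 or less in the other libraries.

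Genes that act with tubulin were taken from 4 lists. Every edgeR call in them given here was lost without G20 and with sites of 2 or more reads, since edgeR then called 0 features in HuR against the slices (9115 and 8656 at an unadjusted p under 0.05). DESeq2 was not run in those settings. Of the 15 other tubulins, 8 coding and 6 3'UTR features were tested in HuR against the slices and none was called by edgeR, with 2 coding features (TUBB6 and TUBB3, named after their values were seen) at an unadjusted p under 0.05, and 2 coding and 0 3'UTR features called by DESeq2. Of 20 folding genes, the CCT chaperonin, prefoldin and tubulin cofactors, 3 of 18 coding features fell and 1 of 19 3'UTR features rose, beside 9.96% of all coding features called lower and 1.42% of all 3'UTR features called higher. DESeq2 called 12 of the 18 coding features lower, where it called 29.2% of all coding features lower. CCT3 coding reads, for a CCT subunit, were 466, 50 and 71 in the slices, 4 and 58 in the HuR replicates and 2057 in Total, and fell by 5.68 on the log2 scale (adjusted p 0.0109). CCT5 fell by 4.14 (adjusted p 0.0168) and the cofactor TBCB fell by 4.31 (adjusted p 0.0307). The 3'UTR of CCT2, another subunit, had 1 read in G20, no reads in G35 or G45, 7 and 241 in the HuR replicates and 631 in Total, and rose by 4.91 (adjusted p 0.0430). This is the pattern of TUBA1B, with reads in HuR and Total and next to none in the slices.

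Of 10 genes of the gamma-tubulin ring complex, 1 of 8 coding features passed, a share near the 9.96% of all coding features. This was TUBGCP6, which fell by 4.36 on the log2 scale (adjusted p 0.0182), and none of 5 3'UTR features was called (0 at an unadjusted p under 0.05 and 0 by DESeq2). Of 10 genes of autoregulation and tubulin modification, 1 of 7 coding features passed, likewise near that share, the tubulin deacetylase HDAC6, which fell by 6.92 (SE 2.05, adjusted p 0.0454), and none of 8 3'UTR features was called (1 at an unadjusted p under 0.05 and 0 by DESeq2). The HDAC6 coding reads were few, 53, 4 and 6 in the slices, 1 and 0 in the HuR replicates and 79 in Total, so the size of this fall is uncertain. TTC5, the autoregulation factor, had 59, 34 and 94 exon reads in the slices, 72 and 874 in the HuR replicates and 171 in Total. The median coding difference was -2.28 over other tubulins, -3.37 over folding genes, -2.79 over the ring complex and -2.88 over autoregulation and modification, beside -2.61 over all coding features.

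Over the 6 libraries, the genes whose exon-read profile was most like that of the 7 tubulin genes summed were EZR (Pearson's r = 0.998), ADNP2 (0.975), TRA2B (0.973), SLC7A1 (0.967) and GHITM (0.964), out of 1179 genes with 20 or more exon reads in every library. EZR held 182.8, 102 and 87.3 RPM in the slices, 65.7 and 286 in the HuR replicates and 129 in Total. The tubulin genes together held 1445, 687 and 617 in the slices, 477 and 2384 in the HuR replicates and 985 in Total. The points share library depth and the HuR replicates dominate the range, so these correlations are a description of 6 libraries only.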

How the data were processed

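The authors trimmed adapters, mapped reads to hg19 with bowtie and ran PARalyzer, which kept uniquely mapping reads (no version of either is given in the sources used here). The deposited tables hold, for each site, whole-number counts of reads, conversion locations and conversion events, which are not normalized. The tables also hold a deposited ModeScore, a fraction, which was not used here. Sites are the groups (any overlapping reads), and clusters served as an alternative. In each library the sequences of 2000 of 2000 sites drawn matched GRCh37.

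Sites were placed by midpoint, on the same strand, in coding, UTR, noncoding exon or intron regions of protein-coding genes from GENCODE release 44 mapped to GRCh37 (bedtools 2.31.1). Counts per gene region were tested with the quasi-likelihood test of edgeR 4.0.16 (R 4.3.3) with TMM factors, filterByExpr with a minimum count of 10 and Benjamini-Hochberg adjustment, threshold 0.05, in 1 fit with HuR, GFP and Total arms. SE is the log2 difference divided by the square root of the F statistic. The single Total library was assumed to vary like the other arms. DESeq2 1.42.0 was an alternative. The model was tested on simulated data over 43293 features, where it recovered 97 of 100 features changed by 16-fold and 21 of 100 changed by 4-fold in HuR against the slices, and called 8 unchanged features. The simulated libraries shared 1 mean profile, apart from the changed features, and 1 fixed spread. The real libraries had TMM factors from 0.204 (G20) to 2.07 (Total), so the simulation does not give the error rates of the real fit. Intervals are 95% Wilson intervals. Single values were compared with exact permutation tests in scipy.

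The genes and lists were chosen with earlier results of these data known. Named are all 7 genes, of each list at most 4 genes called in HuR against the slices in the order of their HuR reads, the 5 most similar profiles (log2 of RPM plus 1), and for sites the 3 with the most HuR reads, the 3 with the most background reads and each gene's site with the most HuR reads. The sites of TUBA1A, TUBB2A, TUBB4B and TUBG1 named by that rule held at most 13 HuR reads and their sequences are not shown. The sequence of the TUBB stretch at chr6:30692397-30692611, also named by that rule, is not shown either. TTC5, the Total site at base 274 and other sites in the TUBB 3'UTR were named outside it, after their values were seen.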

Additional observations from a re-analysis of the deposited data

How the results depend on the processing

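No paired analysis was possible because the slices and Total carry no replicate numbers that pair them with the HuR replicates. For HuR against the slices 2405 features were called, against 3653 with DESeq2 size factors, 5028 without the filter, 7240 with the DESeq2 Wald test, 0 by edgeR with sites of 2 or more reads (8656 at an unadjusted p under 0.05), 3930 with exon features only, 1076 with library totals, and 0 (without G20) to 2317 with 1 library left out. The split of higher to lower calls was 822 to 1583, 3686 to 244 with exon features only and 1052 to 24 with library totals. For HuR against Total, 1140 calls became 2303, 1721, 2986, 1, 174 and 73 in the same order, and 97 to 1440 with 1 library left out. For the slices against Total, 199 calls became 788, 739, 1638, 13, 115 and 3205, 322 with sites wholly inside a region, and 0 (without G35 or G45) to 709. Without G20, 9115 features in HuR against the slices had an unadjusted p under 0.05, and without G35 and G45 the slices against Total had 3569 and 3156.

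The mean 3'UTR share of 93.7% became 50.5% with each site counted once and 74.6% without TUBB, and was 91.4% and 95.9% in single replicates. Conversion of 90.2 events per 100 reads became 79.7 in coding sequence and was 87.0 to 93.4. The overlap of 89.4% became 44.3% with each site counted once and 72.8% without the TUBB site, and was 84.6% to 94.2%. The TUBB level of 371 was 118 to 624. No difference of a tubulin feature changed from a call in one direction to a call in the other. The cause of these changes was not tested. The exon-only fit, library totals and both omissions of TUBB data were chosen after seeing the data.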

Other observations

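At a TUBA1A intron site (chr12:49580737-49580754, hg19, minus strand), G35 held 32 reads with 32 conversion events at 1 location, HuR replicate 1 held 1 read and the other libraries held none. Of all G35 sites with 20 or more reads, 24.4% (1028 of 4211) likewise had all events at 1 location and as many events as reads. The share was 20.7% in G45, 12.3% in HuR replicate 1, 7.27% in G20, 0.696% in HuR replicate 2 and 0.336% in Total.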
